A study of Mus musculus with 12 samples.

Results

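The genes for the TGF-beta ligands, their receptors and latent TGF-beta binding proteins were followed in 3 groups of 10T1/2 cells, on collagen, on collagen with ACLP, and on the latter with SB431542. The 10 members were taken by symbol from the gene count table: Tgfb1, Tgfb2, Tgfb3, Tgfbr1, Tgfbr2, Tgfbr3, Eng, Ltbp1, Ltbp2 and Ltbp3. They are 10 of the 56748 genes in that table, and all 10 were among the 16465 genes with enough counts to be tested.

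The cells were C3H10T1/2, written CH310T1/2 in the sample records, an established wild-type mouse mesenchymal line. They spent 1 h in suspension and then 18 h in 0.5% FBS on 12 kPa hydrogels that carried collagen at 0.05 mg/ml, alone (col1) or with 30 nM aortic carboxypeptidase-like protein (col1-ACLP), and in the remaining group SB431542 was added on the ACLP surface (col1-ACLP+SB). ACLP is a secreted matrix protein that binds collagen, and SB431542 inhibits the kinase of ALK5, the receptor that Tgfbr1 encodes. Each group had 4 libraries, and SB431542 was never given without ACLP, so col1-ACLP+SB against col1 holds both agents at once.

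TGF-beta is made as a precursor whose propeptide stays wrapped around the mature ligand and blocks it. Latent TGF-beta binding proteins tie this latent complex to fibrillin and fibronectin in the matrix, from which integrins, proteases or mechanical pull release the ligand. The free ligand binds the type II receptor, which phosphorylates the type I receptor ALK5, and ALK5 phosphorylates SMAD proteins. Co-receptors without a kinase, betaglycan and endoglin, alter which ligands reach that pair.

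Total counts per library ran from 29246154 to 52201922, and each member had between 650 and 32723 counts in a library. The library col1 replicate 2 stood apart from the rest on the first principal component of all tested genes, at -86.7 against -11.1 to -8.97 for the other col1 libraries, so the calls of members and named genes against col1 are given with and without it. The 10 mesenchymal markers summed to 33976 to 35174 CPM on col1, 43859 to 52781 CPM on col1-ACLP and 40515 to 46063 CPM on col1-ACLP+SB, and their part in the members' values was not tested. The higher sums came with Col1a1 and Col1a2, which rose by 0.82 and 0.65 on the log2 scale on col1-ACLP against col1, while 4 of the 10 markers fell (Pdgfra by 0.76, Twist1 by 0.43, Prrx1 by 0.16 and Pdgfrb by 0.15). Without col1 replicate 2 these log2 fold changes were 0.83, 0.67, -0.76, -0.39, -0.15 and -0.14 in the same order, and Pdgfrb was no longer called (adjusted p = 0.0605), nor was it in 5 other fits that left out 1 library. Levels below are counts relative to library size, scaled by the TMM method (CPM), which compare a gene between libraries, and FPKM, which also divides by gene length, is used where genes are compared with each other. In RNA from whole cultures, fewer cells of a type and less RNA per cell cannot be told apart.

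Most members differed little between the groups, and the differences that passed the test were in the co-receptor gene Tgfbr3 and the Ltbp family genes Ltbp1 and Ltbp2. On col1-ACLP, Tgfbr3 fell by 34.1% and Ltbp1 fell by 14.0% against col1, and none of the 10 members was called higher by edgeR (DESeq2 also called Tgfb2 higher, adjusted p = 0.0333). That is 2 of 10 members called at an adjusted p under 0.05 by edgeR's quasi-likelihood test, where 17.9% of all tested genes were called, 9.52% higher and 8.41% lower. Only Tgfbr3 also passed 0.58 in size on the log2 scale, as did 4.97% of all tested genes. With SB431542 on the ACLP surface, Tgfbr3 and Ltbp1 were again lower than on col1 and Ltbp2 was higher, 3 of 10 members against 9.13% of all tested genes (4.60% higher and 4.54% lower). None of these 3 passed 0.58 in size, which 2.28% of all tested genes did. Between col1-ACLP+SB and col1-ACLP no member was called by edgeR, 3 had an unadjusted p under 0.05, DESeq2 called 1 member (Tgfb2), and 1.48% of all tested genes were called by edgeR (0.571% higher and 0.905% lower), 0.128% past 0.58 in size. Of the genes called in the 3 comparisons 53.1%, 50.3% and 38.7% were higher, and with library size as the only scaling 38.3%, 41.8% and 59.0% were. The comparisons share groups, so they are not independent of each other.

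**Figure D1:**
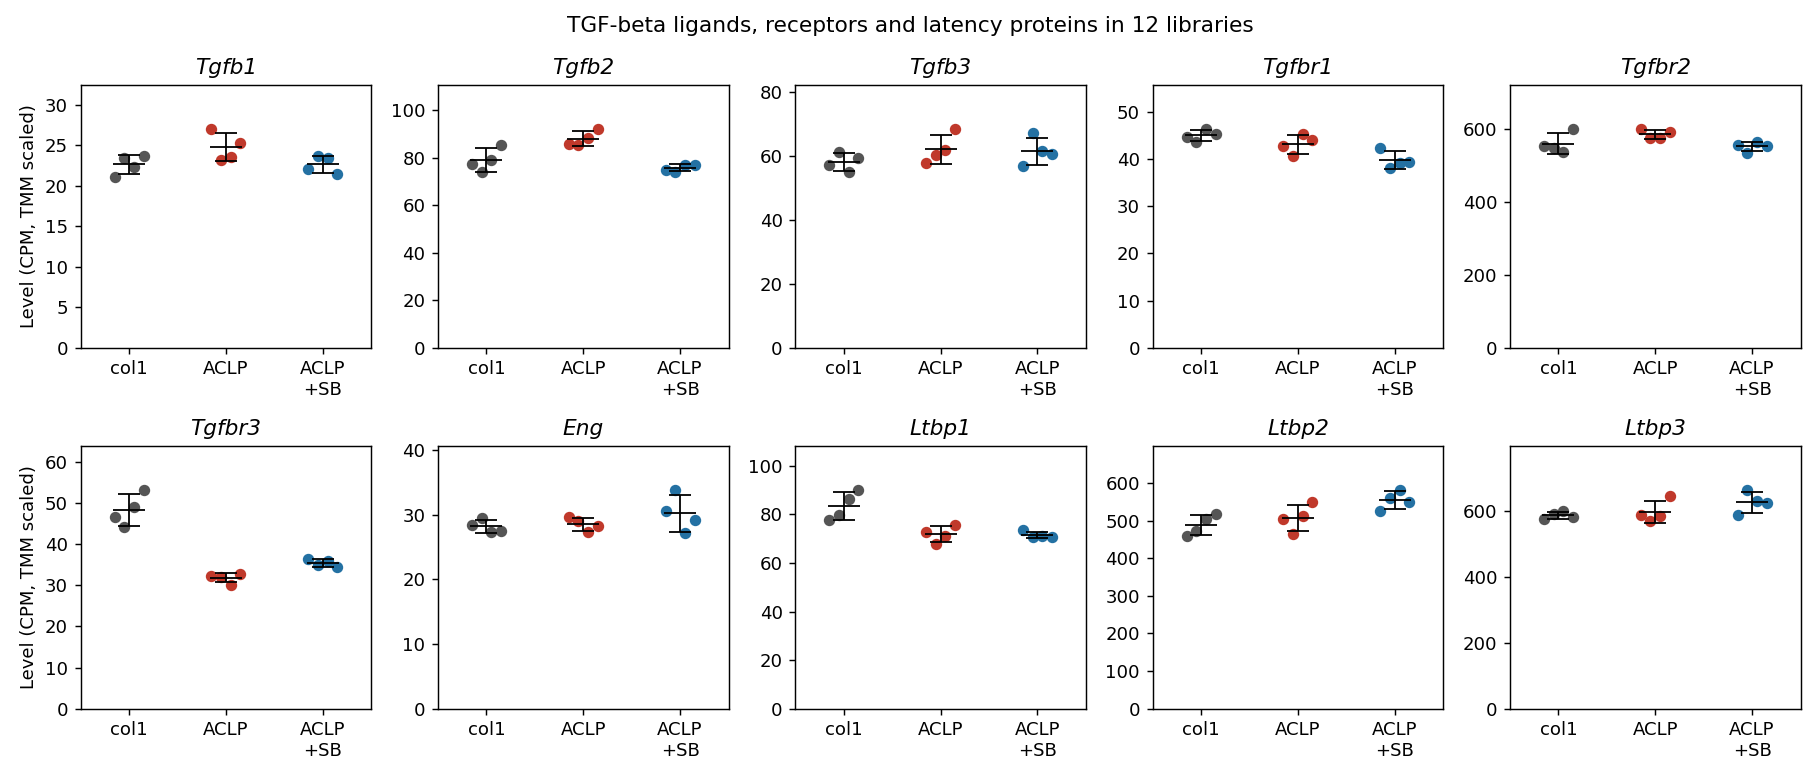
Level of each member in CPM (TMM scaled, axes from 0) by group, with 1 point per library and lines for the mean and SD of 4 libraries. Tgfbr3 is the member with the widest separation, with col1 at 44.3 to 53.3 CPM and col1-ACLP at 30.2 to 32.7 CPM, while Eng, Ltbp3, Tgfb1 and Tgfb3 overlap between all 3 groups.

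The median log2 fold change of the members was 0.041 on col1-ACLP against col1, beside -0.0099 for all tested genes. The median size of that change, sign ignored, was 0.079 for the members and 0.188 for all tested genes. For the 8 members that were not called, the 95% intervals of the log2 fold change lay between -0.20 and 0.31, a fold of 0.871 to 1.24. In col1-ACLP+SB against col1 the median size was 0.096 for the members and 0.148 for all tested genes. Between the ACLP groups with and without SB431542 it was 0.099 and 0.119. These medians were not matched for level. On col1 every member lay above the median tested gene (3.92 FPKM), the lowest being Tgfb1 at 4.49 FPKM, and genes with few counts have less certain fold changes. Within a group the coefficient of variation of a member ran from 1.88% to 9.35%.

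**Figure D2:**
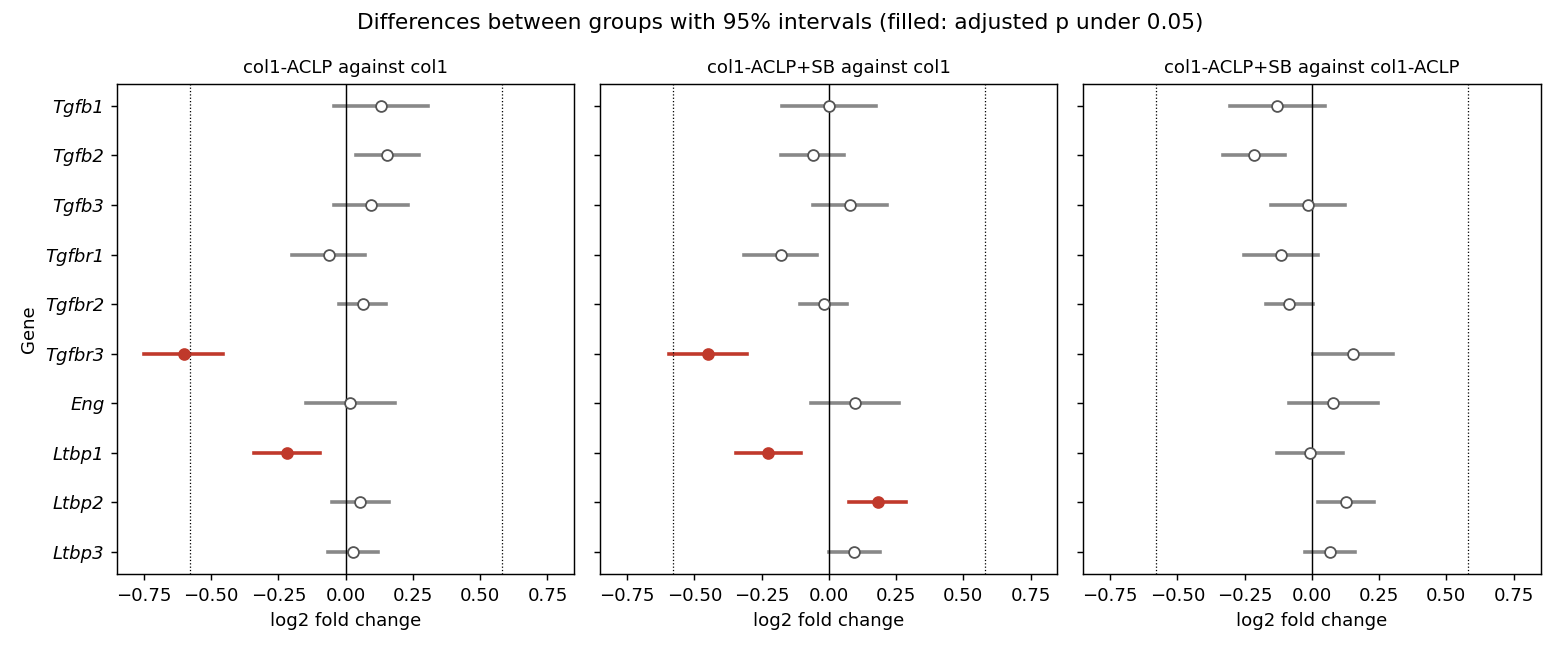
Log2 fold change of each member in the 3 comparisons with its 95% interval, from the edgeR fit over all 12 libraries. Dotted lines mark a size of 0.58; Tgfbr3 at -0.60 on col1-ACLP against col1 is the 1 member beyond them.

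The ligand genes Tgfb1, Tgfb2 and Tgfb3 encode the 3 mammalian isoforms of TGF-beta. Tgfb1 lies at chr7:25386427-25404502, Tgfb2 at chr1:186354989-186438186 and Tgfb3 at chr12:86103519-86125815 (GRCm39, as in the gene table). Per gene length, Tgfb3 was the highest of them in every group, at 17.2 ± 0.794 FPKM on col1 (SD, n = 4), followed by Tgfb2 at 13.7 ± 0.845 FPKM and Tgfb1 at 4.49 ± 0.233 FPKM. The ranges of the ligands did not overlap in any of the 3 groups. Tgfb3 made up 48.6%, Tgfb2 38.7% and Tgfb1 12.7% of the summed ligand FPKM on col1. Tgfb1 thus had the least RNA per length of the ligands in each group. The order of Tgfb2 and Tgfb3 rests on the 1 length given for each gene (5791 and 3383 bases). Before division by length, Tgfb2 was the higher on col1, at a mean of 79.1 CPM against 58.1 CPM. Whether these lengths are those of the transcripts expressed was not tested.

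The starts of the ligand genes differ in the sequence that precedes them, which is shown for Tgfb1 and Tgfb2 because they are the least abundant ligand and the ligand closest to the threshold. Each line holds the 250 bases before a start in the RefSeq promoter table (GRCm38.p6), 5′ to 3′ on the gene's strand, and 8 of the 10 members had an entry. Capitals mark matches, on either strand, to any of 9 motifs: the GC box GGGCGG, the cyclic AMP response element TGACGTCA, the AP-1 site TGANTCA, the SMAD repeat CAGACA, the E-box CACGTG, the TEAD site GGAATG, the CCAAT box CCAAT, the TATA box TATAAA and the CArG box. No marked match overlapped another.
Tgfb1: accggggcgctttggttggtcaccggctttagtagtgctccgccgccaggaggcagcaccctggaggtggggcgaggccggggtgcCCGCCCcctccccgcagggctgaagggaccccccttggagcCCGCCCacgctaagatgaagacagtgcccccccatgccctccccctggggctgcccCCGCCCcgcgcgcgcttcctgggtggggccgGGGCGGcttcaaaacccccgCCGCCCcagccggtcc
Tgfb2: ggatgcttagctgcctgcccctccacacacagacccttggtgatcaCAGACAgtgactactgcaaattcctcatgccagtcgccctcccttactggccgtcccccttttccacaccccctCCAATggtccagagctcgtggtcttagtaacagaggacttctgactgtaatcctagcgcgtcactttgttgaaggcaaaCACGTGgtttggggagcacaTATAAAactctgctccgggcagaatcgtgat
The Tgfb1 window, chr7:25686752-25687001 on the plus strand, had a GC content of 75.2%, higher than 96.1% of the 32851 promoters in the table. It held 5 GC boxes, a motif found in 32.7% of those promoters, and none of the other 8 motifs. The Tgfb2 window, chr1:186705990-186706239 on the minus strand, had a GC content of 53.6%. Its TATA box began 31 bases before the start, its E-box 51, its CCAAT box 130 and its SMAD repeat 204, and these motifs were present in 12.4%, 6.02%, 33.8% and 17.1% of all promoters. A match of letters is a description and does not show that a factor bound there.

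Tgfb2 measured 77.6, 73.9, 79.3 and 85.6 CPM in the col1 libraries (replicates 1 to 4), 86.1, 85.6, 88.4 and 92.3 CPM on col1-ACLP, and 75.1, 74.2, 77.0 and 77.2 CPM on col1-ACLP+SB. All col1-ACLP libraries lay above all col1 libraries, though the highest of the one group and the lowest of the other both round to 85.6 CPM, and all lay above the col1-ACLP+SB libraries with a clear gap. With library size as the only scaling, col1 replicate 4 at 86.6 CPM lay above col1-ACLP replicates 1 and 2 at 84.5 and 85.3 CPM, so col1 and col1-ACLP overlapped. The log2 fold change on col1-ACLP against col1 was 0.16 (SE 0.0562, edgeR adjusted p = 0.0573), which missed the threshold. The difference of col1-ACLP+SB from col1-ACLP was -0.22 (SE 0.0563, edgeR adjusted p = 0.0532), which missed it as well. Against col1, col1-ACLP+SB differed by -0.06 (edgeR adjusted p = 0.635), and those libraries overlapped. DESeq2 called the first of these differences at an adjusted p of 0.0333 and the second at 0.00827. Without col1 replicate 2, edgeR's adjusted p was 0.165 for the first and 0.0406 for the second, and without col1 replicate 4 it was 0.0219 and 0.0456.

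Tgfb1 measured 21.1 to 23.6 CPM on col1, 23.2 to 27.0 CPM on col1-ACLP and 21.5 to 23.6 CPM on col1-ACLP+SB. The log2 fold change on col1-ACLP against col1 was 0.13 with a 95% interval of -0.045 to 0.31 (edgeR adjusted p = 0.348), and the groups overlapped. Tgfb3 measured 54.8 to 61.1 CPM on col1, 57.7 to 68.4 CPM on col1-ACLP and 56.7 to 67.0 CPM on col1-ACLP+SB. On col1-ACLP it differed from col1 by 0.094 on the log2 scale with a 95% interval of -0.045 to 0.23 (edgeR adjusted p = 0.403). The 5149 bases at one end of Tgfb3 are also part of the Ttll5 gene on the other strand, and the strand setting of the counting is not given in the sources used here, so reads from that stretch are uncertain. For both genes col1-ACLP+SB also overlapped each of the other groups.

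**Figure D3:**
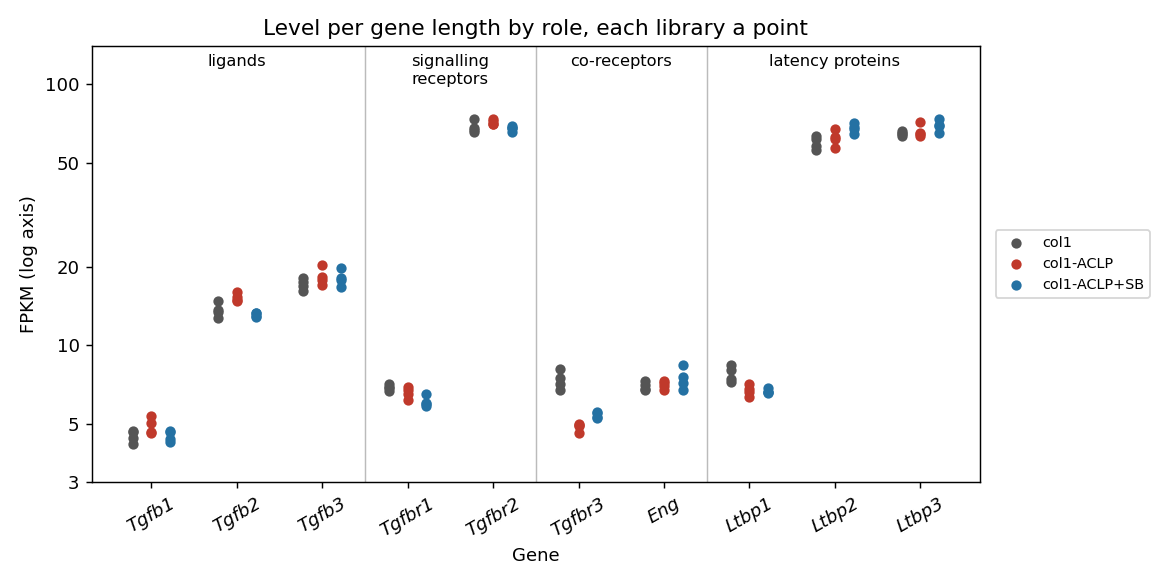
Level per gene length of each member in FPKM on a log axis, with 1 point per library, coloured by group and ordered by role. Tgfbr2, Ltbp2 and Ltbp3 lie above 50 FPKM in every library, and the other members lie between 4.18 and 20.2 FPKM.

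Tgfbr2, the type II receptor gene (chr9:115913361-116004428), was among the most abundant members, and Tgfbr1, the type I receptor gene (chr4:47353222-47414931), among the least. On col1 Tgfbr2 stood at 68.4 ± 3.45 FPKM and Tgfbr1 at 6.89 ± 0.182 FPKM (SD, n = 4), above 96.6% and 62.1% of tested genes. The ratio of Tgfbr2 to Tgfbr1 FPKM was 9.94 ± 0.554 for col1, 10.9 ± 0.539 for col1-ACLP and 11.1 ± 0.466 for col1-ACLP+SB, with overlapping ranges of 9.24 to 10.6, 10.1 to 11.3 and 10.5 to 11.6. Neither receptor gene was called in any of the 3 comparisons.

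Tgfbr1, whose product SB431542 inhibits, measured 44.7, 43.5, 46.4 and 45.3 CPM in the col1 libraries, 42.6, 40.5, 45.2 and 43.9 CPM on col1-ACLP, and 42.4, 38.2, 39.1 and 39.4 CPM on col1-ACLP+SB. Every col1-ACLP+SB library was below every col1 library, and the col1-ACLP libraries overlapped both other groups. The log2 fold change of col1-ACLP+SB against col1 was -0.18 with a 95% interval of -0.31 to -0.043 (edgeR adjusted p = 0.100). On col1-ACLP against col1 it was -0.063 (edgeR adjusted p = 0.604).

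Tgfbr2 measured 554, 549, 537 and 601 CPM in the col1 libraries, 599.5, 576, 575 and 593 CPM on col1-ACLP, and 556, 535, 566 and 555 CPM on col1-ACLP+SB. The highest single value was in col1 replicate 4, and the libraries of col1 overlapped those of both other groups. The log2 fold change on col1-ACLP against col1 was 0.064 with a 95% interval of -0.023 to 0.15 (edgeR adjusted p = 0.355). All col1-ACLP+SB libraries lay below all col1-ACLP libraries, at a log2 difference of -0.083 (edgeR adjusted p = 0.424).

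Tgfbr3 encodes betaglycan, a co-receptor that binds all TGF-beta isoforms and presents TGF-beta2 in particular to the type II receptor, and it lies at chr5:107254436-107437495. It measured 46.7, 44.3, 49.0 and 53.3 CPM in the col1 libraries, 32.4, 32.1, 30.2 and 32.7 CPM on col1-ACLP, and 36.3, 34.9, 36.0 and 34.5 CPM on col1-ACLP+SB. The groups did not overlap in any pair, with col1 highest, col1-ACLP+SB between and col1-ACLP lowest.

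Tgfbr3 fell by 0.60 on the log2 scale on col1-ACLP against col1 (SE 0.0715, 95% interval -0.75 to -0.45, edgeR adjusted p = 5.29e-07). With SB431542 it was 0.45 lower than on col1 on the same scale (log2 fold change -0.45, SE 0.0710, edgeR adjusted p = 6.75e-05), a fall of 26.7%. Without col1 replicate 2 these values were -0.64 (adjusted p = 3.82e-07) and -0.49 (adjusted p = 3.80e-05). The difference of col1-ACLP+SB from col1-ACLP was 0.15 with a 95% interval of 0.0053 to 0.30 (edgeR adjusted p = 0.363), so all 4 libraries were higher with SB431542 but the adjusted p missed the threshold. Both falls against col1 were called under all 20 alternative analyses, and the fall on col1-ACLP was past 0.58 in size under 18 of them.

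Eng encodes endoglin, a co-receptor known from endothelium that mesenchymal stromal cells also carry, and it lies at chr2:32536607-32572681. It measured 27.3 to 29.5 CPM on col1, 27.3 to 29.6 CPM on col1-ACLP and 27.2 to 33.9 CPM on col1-ACLP+SB, and all groups overlapped. The log2 fold change on col1-ACLP against col1 was 0.017 with a 95% interval of -0.15 to 0.18 (edgeR adjusted p = 0.930). Tgfbr3 accounted for 51.4 ± 2.79% of the summed FPKM of both co-receptors for col1, 40.8 ± 0.655% for col1-ACLP and 42.1 ± 2.52% for col1-ACLP+SB (SD, n = 4). The col1 range of 48.1% to 54.6% lay above the ranges of both ACLP groups, which reached 41.8% and 45.0%.

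The endothelial genes Pecam1 and Cdh5 reached at most 0.298 and 0.309 CPM in any library. All 7 endothelial markers summed to 5.14 to 9.45 CPM on col1, 8.82 to 11.5 CPM on col1-ACLP and 5.17 to 7.89 CPM on col1-ACLP+SB, most of it from Tek at 3.95 to 9.57 CPM. Tek fell by 0.86 on the log2 scale in col1-ACLP+SB against col1-ACLP (edgeR adjusted p = 0.0116), where Eng differed by 0.080 (edgeR adjusted p = 0.776). Without col1-ACLP replicate 4 that fall of Tek was not called (edgeR adjusted p = 0.0522). Whether other cells had a part in the Eng counts was not tested. Eng shares 61 bases with Fpgs on the other strand.

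The Ltbp genes were at very different levels per length. Ltbp3, whose product binds the latent complex, stood at 64.8 ± 1.22 FPKM on col1 (SD, n = 4). Ltbp2, a matrix protein of the same family that does not bind latent TGF-beta, stood at 59.7 ± 3.34 FPKM. Ltbp1, which binds the latent complex and anchors it in the matrix, stood at 7.81 ± 0.544 FPKM. Ltbp1 made up 5.90 ± 0.230% of the summed FPKM of Ltbp1, Ltbp2 and Ltbp3 for col1, 4.99 ± 0.0930% for col1-ACLP and 4.66 ± 0.270% for col1-ACLP+SB. The col1 range of 5.72% to 6.21% lay above both others, which ended at 5.09% and 5.05%.

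RefSeq lists 2 starts for Ltbp1, and the 250 bases before each are printed because the gene's count merges transcripts from both, so the change below is not assigned to either. They lie at chr17:75005279-75005528 and chr17:75178531-75178780, on the plus strand of GRCm38.p6, and capitals mark the same motifs.
Ltbp1 first start: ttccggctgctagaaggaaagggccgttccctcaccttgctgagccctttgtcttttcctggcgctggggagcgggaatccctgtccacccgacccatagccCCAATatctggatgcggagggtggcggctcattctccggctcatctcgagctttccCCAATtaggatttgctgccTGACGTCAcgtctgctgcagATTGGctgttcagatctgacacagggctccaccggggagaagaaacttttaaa
Ltbp1 second start: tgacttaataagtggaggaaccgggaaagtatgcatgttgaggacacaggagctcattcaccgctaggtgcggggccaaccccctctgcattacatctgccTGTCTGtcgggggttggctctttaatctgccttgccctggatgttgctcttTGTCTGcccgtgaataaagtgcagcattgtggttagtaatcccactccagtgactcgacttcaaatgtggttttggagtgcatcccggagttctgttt
The window before the first start held the cyclic AMP response element TGACGTCA, 73 bases before the start, which occurred in 1.55% of all promoters, and 3 CCAAT boxes. The window before the second start held neither, and had 2 SMAD repeats, both on the reverse strand, 149 and 98 bases before the start. GC content was 56.8% in the first window and 50.8% in the second.

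Ltbp1 (chr17:75312563-75699507 in GRCm39) measured 77.6, 79.8, 86.2 and 90.3 CPM in the col1 libraries, 72.6, 67.8, 71.0 and 75.7 CPM on col1-ACLP, and 73.4, 70.9, 71.0 and 70.5 CPM on col1-ACLP+SB. Every library of either ACLP group was below every col1 library, and the ACLP groups overlapped each other. Ltbp1 fell by 0.22 on the log2 scale on col1-ACLP against col1 (SE 0.0594, edgeR adjusted p = 0.0101).

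With SB431542 the log2 fold change of Ltbp1 against col1 was -0.22 (SE 0.0592, edgeR adjusted p = 0.0146). The difference of col1-ACLP+SB from col1-ACLP was -0.0060 with a 95% interval of -0.13 to 0.12. Without col1 replicate 2 the values against col1 were -0.24 on col1-ACLP (adjusted p = 0.00923) and -0.24 on col1-ACLP+SB (adjusted p = 0.0132). The col1 libraries with the most Ltbp1 were replicates 4 and 3. Without col1 replicate 4 the adjusted p was 0.0567 for col1-ACLP and 0.0797 for col1-ACLP+SB, and without col1 replicate 3 the latter was 0.0541.

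Ltbp2 (chr12:84829986-84923306) measured 459, 474, 505 and 518 CPM in the col1 libraries, 505, 465, 511 and 549 CPM on col1-ACLP, and 525, 559.6, 583 and 549.6 CPM on col1-ACLP+SB. All col1-ACLP+SB libraries lay above all col1 libraries, while col1-ACLP overlapped both. Ltbp2 rose by 0.18 on the log2 scale in col1-ACLP+SB against col1 (SE 0.0509, edgeR adjusted p = 0.0224), or 13.4%.

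On col1-ACLP against col1 the log2 fold change of Ltbp2 was 0.054 (edgeR adjusted p = 0.552), and col1-ACLP+SB differed from col1-ACLP by 0.13 (edgeR adjusted p = 0.258). The rise against col1 was not called without col1 replicate 1 (adjusted p = 0.0946), col1 replicate 2 (adjusted p = 0.0653) or col1-ACLP+SB replicate 3 (adjusted p = 0.0817). Ltbp2 shares 764 bases with D030025P21Rik, a noncoding gene on the other strand with a mean of 95.8 counts per library.

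Ltbp3 (chr19:5790932-5808560) measured 575 to 601 CPM on col1, 572 to 647 CPM on col1-ACLP and 588 to 666 CPM on col1-ACLP+SB, and all groups overlapped. Its log2 fold change was 0.027 on col1-ACLP against col1 (edgeR adjusted p = 0.772) and 0.095 in col1-ACLP+SB against col1 (edgeR adjusted p = 0.246).

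Counted over the members, the libraries of col1-ACLP and col1 did not overlap for 3 of 10 (Tgfb2, Tgfbr3 and Ltbp1), where 21.2% of tested genes did not. For col1-ACLP+SB and col1 they did not overlap for 4 of 10 (Tgfbr1, Tgfbr3, Ltbp1 and Ltbp2), against 13.0% of tested genes. For col1-ACLP+SB and col1-ACLP it was 3 of 10 (Tgfb2, Tgfbr2 and Tgfbr3), against 8.17% of tested genes. Tgfbr3 is the member present in all 3 counts. These counts used TMM scaling, and with library size alone the col1-ACLP and col1 libraries overlapped for Tgfb2.

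In order of FPKM on col1 the members ran Tgfbr2, Ltbp3, Ltbp2, Tgfb3, Tgfb2, Ltbp1, Tgfbr3, Eng, Tgfbr1 and Tgfb1, where the median tested gene had 3.92 FPKM. Neighbours whose libraries overlapped, and so were not told apart, were Tgfbr2 with Ltbp3, Ltbp1 with Tgfbr3, Tgfbr3 with Eng, and Eng with Tgfbr1. On col1-ACLP Tgfbr3 moved from seventh to last place, at 4.87 ± 0.176 FPKM, and overlapped Tgfb1 at 4.92 ± 0.349 FPKM. On col1-ACLP+SB Tgfbr3 was ninth, above Tgfb1, and the libraries of these genes did not overlap.

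For the member of each role with the smallest p on col1-ACLP against col1, the tested genes of most similar pattern over the 12 libraries were found by Pearson's r of log2 CPM. For Tgfbr3 they were Il6ra (r = 0.977), Scara3 (r = 0.976) and Adamts14 (r = 0.973). Il6ra went from a mean of 22.2 CPM on col1 to 10.3 CPM on col1-ACLP and 13.3 CPM on col1-ACLP+SB, the same order of groups as Tgfbr3. For Ltbp1 they were Midn (r = 0.947), Vav2 (r = 0.928) and Adgra2 (r = 0.920), for Tgfb2 they were Dlg1 (r = 0.932), Nepro (r = 0.923) and Gpc6 (r = 0.919), and for Tgfbr2 they were Xpr1 (r = 0.892), Clic4 (r = 0.879) and Aqp5 (r = 0.874). The 12 points share 3 groups and their scaling, and these are the highest of 16465 values for each member, so the correlations describe the libraries only.

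Around the members, the genes for storage and activation of latent TGF-beta moved in both directions on col1-ACLP. Of 26 tested of 28 listed, 12 rose and 7 fell against col1 (17.9% of all tested genes were called), with a median log2 fold change of 0.13 beside -0.0099 for all tested genes. Fmod, a collagen-binding proteoglycan that also binds TGF-beta, rose by 1.34 on the log2 scale, and Adamtsl2, a microfibril protein that binds Ltbp1, rose by 1.13 from a mean of 1.14 to 2.52 CPM. Dcn, the proteoglycan decorin, fell by 1.65, and Lrrc32, which holds latent TGF-beta at the cell surface, fell by 1.07. Ltbp4, the remaining member of the Ltbp family, had means of 2.92 (col1) and 2.49 CPM (col1-ACLP, log2 fold change -0.23, SE 0.264, edgeR adjusted p = 0.648). In col1-ACLP+SB against col1, 8 of the list rose and 8 fell (9.13% of all tested genes were called). Adamtsl2 and Fmod rose by 1.21 and 1.04, and Dcn and Lrrc32 fell by 1.35 and 1.18.

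Of 13 tested of 17 other receptors and co-receptors of the superfamily, 2 rose and 4 fell on col1-ACLP against col1, with a median of -0.14, where 17.9% of all tested genes were called. Rgmb, a co-receptor for bone morphogenetic proteins, fell by 0.74 on the log2 scale, Nrp1, which also binds latent TGF-beta, fell by 0.54, and Rgma, a relative of Rgmb, fell by 0.25, while Acvr1, a type I receptor for bone morphogenetic proteins, rose by 0.31. In col1-ACLP+SB against col1 none of them was called higher and 2 fell, Nrp1 by 0.56 and Rgmb by 0.53, where 9.13% of all tested genes were called. Of 22 SMADs and receptor regulators 7 rose and 4 fell on col1-ACLP, against the same 17.9%, with a median of 0.10. The inhibitor genes Skil, Smad7 and Smad6 rose by 1.02, 0.60 and 0.36, and Usp11, a deubiquitinase, fell by 0.43. With SB431542, 2 of them rose against col1, Skil by 0.80 and Smad7 by 0.44, and 5 fell, including Smad3 by 0.39 and the ubiquitin ligase gene Nedd4l by 0.34, against 9.13% of all tested genes called.

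Genes known as targets of TGF-beta signalling were counted in the same way. Of 13 tested of 14 TGF-beta target genes, 9 rose and 1 fell on col1-ACLP against col1, beside 17.9% of all tested genes called, with a median log2 fold change of 0.82. Pmepa1, Ccn2 and Acta2, which encode an inhibitor of TGF-beta signalling, a matricellular protein and smooth muscle actin, rose by 1.87, 1.47 and 1.18. In col1-ACLP+SB against col1 9 rose and 0 fell, beside 9.13% of all tested genes called, with a median of 0.63, and Pmepa1, Ccn2 and Acta2 were higher by 1.47, 1.15 and 0.94. These lists share Smad7, Skil and Bambi, and they were chosen with results of these data known. Without col1 replicate 2, the genes that rose and fell on col1-ACLP numbered 12 and 7 for storage and activation, 2 and 3 for the other receptors, 7 and 3 for SMADs and regulators, and 9 and 0 for the targets. For col1-ACLP+SB against col1 they numbered 8 and 8, 0 and 2, 1 and 5, and 8 and 0. Of the genes named by size in these lists 15 of 16 were still called on col1-ACLP and 13 of 14 with SB431542, the exceptions being Usp11 (adjusted p = 0.0518) and Smad7 (adjusted p = 0.0636). With other libraries left out, Adamtsl2 and Smad6 were not called on col1-ACLP without col1-ACLP replicate 4 (adjusted p = 0.0757 and 0.0599). With SB431542, Adamtsl2 was not called without col1-ACLP+SB replicate 2 (adjusted p = 0.0645), and Smad7 was not called without col1 replicate 3 or col1-ACLP+SB replicate 2 or 3 (adjusted p = 0.0631, 0.0550 and 0.0575).

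Between col1-ACLP+SB and col1-ACLP, 1 of the storage and activation genes rose and 3 fell, where 1.48% of all tested genes were called. Bmp1, a protease that cleaves Ltbp1 and procollagen, rose by 0.25 on the log2 scale. Fbn1, the fibrillin that Ltbp proteins bind, fell by 0.28, Fmod by 0.30 and Thbs1, an activator of latent TGF-beta, by 0.24. None of the other receptors and none of the SMADs and regulators was called by edgeR, and 2 target genes fell, Pmepa1 by 0.40 and Acta2 by 0.25. With each of the 12 libraries left out in turn, Bmp1 and Fbn1 stayed called, and the other calls were lost in some fits. Neither target gene was called without col1-ACLP replicate 4 (adjusted p = 0.0547 for Pmepa1 and 0.0864 for Acta2), and Acta2 was not called without col1-ACLP+SB replicate 4 (adjusted p = 0.0878). Thbs1 was not called in 5 of the 12 fits, those without col1-ACLP replicate 3 or 4 or col1-ACLP+SB replicate 1, 2 or 4 (adjusted p of 0.0606 to 0.0910). Fmod was not called in 5 either, those without col1-ACLP replicate 1, 3 or 4 or col1-ACLP+SB replicate 1 or 4 (adjusted p of 0.0778 to 0.122). The count of storage and activation genes called fell to 2 without col1-ACLP replicate 3, col1-ACLP replicate 4 or col1-ACLP+SB replicate 4.

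**Figure D4:**
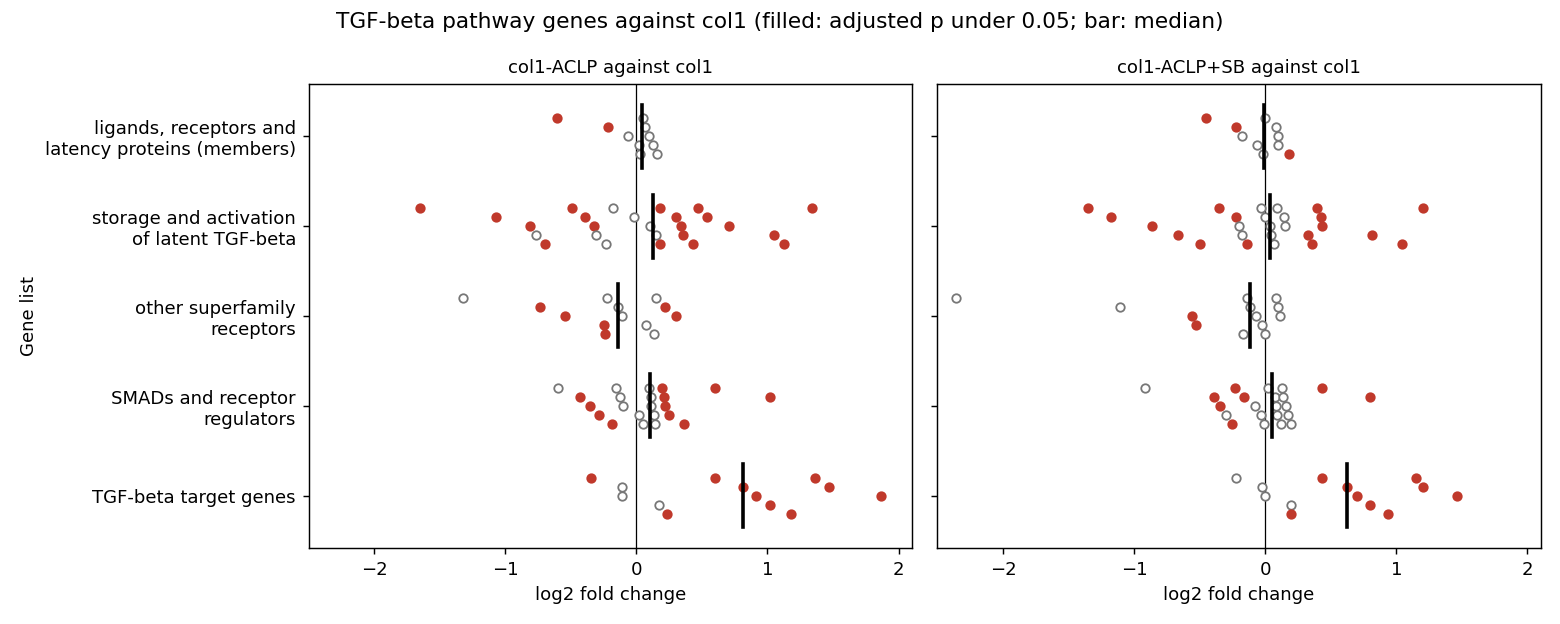
Log2 fold change of the members and of each pathway list against col1, on col1-ACLP (left) and col1-ACLP+SB (right), with 1 point per tested gene, filled where the adjusted p was under 0.05, and a bar at the median. The members centre near 0 (median 0.041 and -0.0086), and the target genes centre at 0.82 and 0.63.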

How the data were processed

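Poly(A) RNA was sequenced from 12 libraries, and the authors mapped reads with HISAT2 and deposited raw counts of reads per gene, neither normalized nor filtered, with a gene length for each. The labels name mm10, but the positions of the 10 members match GRCm39, the build the paper states. Counting tool and strand setting are not given in the sources used here. All columns of counts were used.

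The test was edgeR's (version 4.0.16, R 4.3.3) on counts: filterByExpr (16465 genes kept), TMM factors, glmQLFit and glmQLFTest, all 12 libraries in 1 fit with group as the only term, Benjamini-Hochberg adjustment over all tested genes, and a call at an adjusted p under 0.05. P-values rest on the spread between libraries within groups, estimated jointly over the 3 groups. Each comparison therefore also draws on the group outside it. The paper calls the 4 libraries of each group biological replicates, and intervals of fits are at 95%. The common biological coefficient of variation was 0.153. The 18 replicate pairs differed beyond sampling noise (chi-square per degree of freedom 7.14 to 18.3). FPKM was computed here from counts, TMM library sizes and the 1 length given per gene, so orders and shares between genes depend on that length. Log2 CPM used a prior count of 2. Counting error covers reads only, since no molecular identifiers were used.

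All 10 members are named, with the 4 largest called changes of each list per comparison, Ltbp4, and the 3 genes most like 1 member per role; a gene that this rule names is not reported here. Members and lists were chosen with earlier results of these data known. Cell type checks used mesenchymal, endothelial, macrophage and epithelial markers; macrophage markers summed to 8.40 to 13.8 CPM and epithelial markers to 2.34 to 4.84 CPM, with Adgre1 and Epcam at 0 throughout. Promoters were RefSeq windows (GRCm38.p6).

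Alternatives changed 1 choice at a time: RLE factors or library size alone, no filter or a mean of 10 counts, DESeq2 1.42.0, limma-voom (limma 3.58.1), fits of the 2 groups compared, a replicate block, a fold threshold of 0.58, and each library left out. Scripts were tested on simulated counts.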

Additional observations from a re-analysis of the deposited data

Results flagged for a closer look

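None of the 10 members had a library that stood apart within its group of 4 by Dixon's criterion. Among the members and the named list genes, 32 genes in 3 groups, 4 of 96 groups held such a library, and chance alone gives about 1 in 20. Lrrc32, which presents latent TGF-beta at the cell surface, was at 16.8 CPM in col1 replicate 1 and at 11.3 to 12.3 CPM in the other col1 libraries. Rgma, a co-receptor for bone morphogenetic proteins, was at 225 CPM in col1-ACLP replicate 2 and at 250.2 to 253 CPM in the others. Thbs1, an activator of latent TGF-beta, was at 1990 CPM in col1-ACLP+SB replicate 3 and at 1715 to 1751 CPM in the others. Bmp1, a procollagen protease, was at 618 CPM in col1-ACLP+SB replicate 2 and at 544 to 555 CPM in the others.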

How the results depend on the processing

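Each member had at least 650 counts in every library, and each group had 4 libraries. The falls of Tgfbr3 against col1 were called under all 20 alternatives in both comparisons. Those of Ltbp1 were called under 19 and 18, the rise of Ltbp2 under 17, and the differences of Tgfb2 under 3 (col1-ACLP against col1) and 4 (col1-ACLP+SB against col1-ACLP). The cause of these changes in call was not tested.

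With a fold threshold of 0.58 added, col1-ACLP against col1 gave 1 member, 8 storage and activation genes, 1 other receptor, 2 SMADs and regulators and 819 of all genes. In col1-ACLP+SB against col1 it left 0 members, 7 storage genes, 0 other receptors, 1 SMAD or regulator and 376 of all genes, and in col1-ACLP+SB against col1-ACLP 0 storage genes, 0 target genes and 21 of all genes. These are smaller by construction. In the last comparison, where 243 genes were called, no filter gave 1 member, 7 storage genes, 1 other receptor, 4 target genes and 428 genes in all, and DESeq2 gave 1 member, 7 storage genes, 1 other receptor, 1 SMAD or regulator and 568 genes in all. Library size alone gave 1 other receptor. Leaving out a library gave 0 to 1 members, 2 to 6 storage genes, 0 to 3 target genes and 98 to 282 of all genes, and the count of all genes was 154, 150 and 98 without col1-ACLP replicates 1, 3 and 4 and 120 without col1-ACLP+SB replicate 4.

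Differences near 0 changed sign. With library size alone, Eng became -0.033 and Ltbp3 -0.024 on col1-ACLP against col1, Tgfb1 became -0.022 in col1-ACLP+SB against col1, and Tgfb3 became 0.012 and Ltbp1 0.021 in col1-ACLP+SB against col1-ACLP. Tgfb1 in col1-ACLP+SB against col1 was also -3.28e-04 with RLE factors, -1.81e-04 with DESeq2 and -0.0025 in the fit of those 2 groups. With a library left out, Ltbp3 ran from -0.011 to 0.045 on col1-ACLP against col1, Tgfb1 from -0.030 to 0.027 and Tgfbr2 from -0.038 to 0.017 in col1-ACLP+SB against col1, and in col1-ACLP+SB against col1-ACLP Tgfb3 ran from -0.060 to 0.034, Ltbp1 from -0.033 to 0.020 and Ltbp4 from -0.13 to 0.15.

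Libraries of the same replicate number did not deviate together (correlations of -0.037 to 0.036 over 12 pairs, and 2 of 12 libraries correlated best with their own number). With a replicate block, 2753, 1378 and 177 genes were called in place of 2953, 1504 and 243, and 2, 3 and 0 members as without it.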

Other observations

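The tested integrin subunit genes of the storage and activation list were chosen for mention after their values were seen. On col1-ACLP against col1, all values being CPM with the SD of 4 libraries, Itgav went from 234 ± 9.90 to 300 ± 7.18 (edgeR adjusted p = 4.07e-05), Itgb1 from 944 ± 27.4 to 1068 ± 27.7 (adjusted p = 0.00261), Itgb3 from 52.9 ± 3.34 to 76.8 ± 5.28 (adjusted p = 1.06e-06) and Itgb5 from 324 ± 16.1 to 410 ± 17.1 (adjusted p = 6.08e-06). Itgb8 stood at 15.9 ± 2.65 and 12.9 ± 1.68 (adjusted p = 0.126).

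In col1-ACLP+SB, Itgb3 at 67.8 ± 4.16 CPM and Itgb5 at 406 ± 17.4 CPM were above col1 (edgeR adjusted p = 4.90e-04 and 2.32e-05), while Itgav at 259 ± 25.3 CPM and Itgb1 at 1003 ± 51.5 CPM were not called against col1 (adjusted p = 0.121 and 0.230). Itgb8 at 11.3 ± 1.45 CPM was lower than on col1 (adjusted p = 0.0168). Without col1 replicate 2, each of these genes was on the same side of the threshold in both comparisons. The fall of Itgb8 in col1-ACLP+SB against col1 was called in 9 of the 12 fits that left out 1 library. It was not called without col1 replicate 1, col1 replicate 4 or col1-ACLP+SB replicate 2 (edgeR adjusted p = 0.0541, 0.0932 and 0.0654).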
